A study of Mus musculus with 28 samples.

Results

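The genes described here are 9 members of the Ets family of transcription factors: Spi1, Spib, Erg, Fli1, Ets1, Ets2, Elf1, Etv6 and Gabpa. They were taken by symbol from a table of 24421 genes counted by RNA sequencing in mouse thymocytes. The rule used no measured value, but members and lists were chosen with earlier results of these data known. All 9 were in the table and all 9 were among the 14371 genes that passed the filter on low counts. Ets factors share a winged-helix domain that binds DNA around the letters GGAA, and they act in blood as activators or repressors with partners that occupy neighbouring sites. Spi1 (PU.1) drives myeloid and B cell genes, is carried into the thymus by progenitors and is shut off as thymocytes commit to the T lineage. Ets1, Elf1, Fli1 and Gabpa act throughout T cell life, Erg and Fli1 also belong to the core circuit of blood stem cells, and Etv6 is a repressor.

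The series holds 28 libraries in 6 groups, 3 genotypes each sorted at the stages DN2/3 and DN4, which follow each other before thymocytes display CD4 and CD8. Wild-type C57BL/6 mice gave 4 libraries per stage. Lmo2tg mice, which carry a transgene for Lmo2, an adaptor protein and T cell leukaemia oncogene, gave 5 per stage. Lmo2tg; Ldb1-KO mice, called Ldb1-KO below, carry that same transgene together with deletion of Ldb1, the cofactor that joins Lmo2 complexes, and also gave 5 per stage. The 2 transgenic genotypes therefore differ from each other in Ldb1, and any effect of the Cre used for the deletion cannot be told apart from that difference. Each differs from wild type in Lmo2 as well. Ages, sort gates, the promoter behind the transgene and the Cre line used in each Ldb1-KO sample (Lck-Cre, Rag1-Cre and IL-7Ra-Cre mice are named) were not given in the labels. The design text counts 4 Ldb1-KO replicates where the sample labels give 5, and the labels were followed.

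Library totals ran from 28.1 M to 106.9 M counts, with a median of 60.5 M (M, 1e6). Transgenic replicates 4 and 5 were shallower (28.1 to 44.9 M) than transgenic replicates 1 to 3 (45.8 to 74.7 M). Levels are CPM, the counts of a gene scaled to a common library total after TMM normalization. Lmo2 lay between 0 and 0.410 CPM in the wild-type libraries and between 25.3 and 68.9 CPM in the transgenic ones. Ldb1 was at 57.1 to 120 CPM in Ldb1-KO DN2/3 and at 6.11 to 54.7 CPM in Ldb1-KO DN4, against 247 to 550 CPM in the other groups. All 13 genes of a DN2/3 thymocyte marker list were detected in every group, although the labels describe the source as CD4 T cells. The wild-type libraries follow another naming pattern than the transgenic ones, so library series and genotype cannot be told apart in any comparison with wild type. Nothing in the labels places replicates in separate mice, so p-values reflect only how far these libraries vary. In bulk RNA, fewer cells of a type and less RNA per cell cannot be told apart.

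Positions are those of mm10 with GENCODE M21 gene models. Spi1 lies on chromosome 2 (91082390 to 91115756, plus strand), Spib on chromosome 7 (44525993 to 44532071, minus), Elf1 on chromosome 14 (79481194 to 79582494, plus) and Etv6 on chromosome 6 (134035700 to 134270158, plus). Erg and Ets2 are neighbours on chromosome 16, Erg at 95359169 to 95586593 on the minus strand and Ets2 at 95702075 to 95721051 on the plus strand, with 115.5 kb and 0 protein-coding genes between them. Fli1 and Ets1 form a second such pair on chromosome 9, Fli1 at 32422204 to 32542861 (minus) and Ets1 at 32636221 to 32757820 (plus), separated by 93.36 kb and 0 protein-coding genes. Gabpa is on chromosome 16 at 84834925 to 84863779 (plus). Gabpa and Elf1 overlap Atp5j and Wbp4 on the opposite strand, and 1.75% and 3.37% of their 101-base transcript stretches also occur in that partner. Whether counting used the strand is not given in the labels, so reads from those stretches cannot be assigned to one gene. For Spi1, Spib, Erg, Fli1, Ets1 and Ets2 that share was 0%, and for Etv6 it was 0.625%.

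RefSeq promoter sequences (GRCm38.p6, the mm10 assembly) were matched by symbol for 6 of the 9 genes, with 9 start sites in all, and the 250 bases before each start were searched on both strands for the Ets core CGGAAG, the E-box CANNTG and the GATA letters AGATAA. Erg and Spib are printed because they changed most among these 6 genes. E-box and GATA letters are shown because Lmo2 and Ldb1 reach DNA through bHLH and GATA factors. Matches are in capitals and no match overlaps another.
Spib, chr7:44532072-44532321, minus strand: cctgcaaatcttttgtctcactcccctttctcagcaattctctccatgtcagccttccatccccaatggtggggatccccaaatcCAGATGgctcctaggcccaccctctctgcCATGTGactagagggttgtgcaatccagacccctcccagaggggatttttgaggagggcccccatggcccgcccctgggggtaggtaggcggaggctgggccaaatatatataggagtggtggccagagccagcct
Erg start 3, chr16:95459349-95459598, minus strand: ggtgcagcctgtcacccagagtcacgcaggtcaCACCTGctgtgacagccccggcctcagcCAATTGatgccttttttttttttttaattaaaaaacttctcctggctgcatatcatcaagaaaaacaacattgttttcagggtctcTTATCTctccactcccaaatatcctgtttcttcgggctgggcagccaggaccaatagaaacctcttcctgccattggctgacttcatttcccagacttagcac
Erg start 1, chr16:95586594-95586843, minus strand: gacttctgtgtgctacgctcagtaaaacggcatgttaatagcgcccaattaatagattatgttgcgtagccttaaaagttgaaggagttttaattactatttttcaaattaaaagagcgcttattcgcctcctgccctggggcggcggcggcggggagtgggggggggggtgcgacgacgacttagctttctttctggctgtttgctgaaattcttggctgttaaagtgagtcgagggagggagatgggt
The Spib window holds 2 E-boxes, the window of Erg start 3 holds 2 E-boxes and 1 GATA match, and that of Erg start 1 holds 0 matches. The window of Erg start 2, which is not printed, also holds 0 matches. Of all 32851 such windows, 66.2% hold the E-box, 9.99% the GATA letters and 13.6% the Ets core, so an E-box in such a window is common. Among the members the Ets core occurred in the Gabpa window. The counts do not resolve start sites, so no level can be assigned to one of the Erg windows.

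Per kb of exon, Ets1 was the highest of the 9 genes in all 6 groups (79.3 to 153 CPM per kb) and Spi1 the lowest (0.0263 to 2.23 CPM per kb). In wild-type DN2/3 cells, Etv6 (37.1 CPM per kb) and Elf1 (30.2) followed Ets1, and Fli1, Spib, Gabpa, Erg and Ets2 stood between 12.6 and 16.6. In wild-type DN4 cells Spib (0.847 CPM per kb) and Erg (0.125) had dropped to the positions just above Spi1, while Elf1, Gabpa and Ets2 stood behind Ets1. Erg stayed far higher in Lmo2tg DN4, at 10.3 CPM per kb.

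From DN2/3 to DN4, wild-type thymocytes lost most of their Spi1, Spib and Erg RNA, had less Etv6 and slightly less Fli1, and had more Gabpa. In all, 5 of the 9 genes fell and 1 rose, and 46.0% of all genes tested changed (21.1% higher, 24.8% lower). The ranges of the 2 stages did not overlap for 8 of the 9 genes, all but Elf1, where 54.2% of all genes tested did not overlap. Spi1 stood at 3.60, 2.79, 2.69 and 3.23 CPM in the wild-type DN2/3 libraries and at 0.0293, 0.114, 0.0634 and 0.0761 CPM in DN4. The DN4 values correspond to 2 to 8 counts per library, far below every DN2/3 library. The log2 change was -5.39 (SE 0.92, edgeR quasi-likelihood test, adjusted p = 5.10e-05).

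Spib, a close relative of Spi1 that acts in B cells and plasmacytoid dendritic cells and is transiently active in early thymocytes, had 35.8, 47.6, 48.5 and 52.9 CPM in wild-type DN2/3 and 2.02, 2.57, 2.22 and 2.90 CPM in DN4. It fell by 4.25 on the log2 scale (SE 0.39, adjusted p = 2.04e-08). Erg showed the widest step. Its wild-type DN2/3 libraries agreed closely, at 47.8, 49.1, 44.9 and 45.0 CPM, and its DN4 libraries held 0.234, 0.458, 0.666 and 0.380 CPM. That fall was -6.75 on the log2 scale (SE 0.92, adjusted p = 4.39e-06), larger in size than the stage change of 99.8% of the genes tested.

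The repressor Etv6 went from 222 ± 11.6 CPM (SD, n = 4) in wild-type DN2/3 to 93.1 ± 2.97 CPM (n = 4) in DN4, with no overlap (log2 change -1.25, SE 0.21, adjusted p = 4.26e-05). Fli1, the nearest relative of Erg, went from 57.8 ± 4.69 to 44.0 ± 2.93 CPM (log2 change -0.39, SE 0.15, adjusted p = 0.0368). The Fli1 call was lost with RLE scaling (adjusted p = 0.0501), without the low-count filter (0.0724) and on leaving out any of 6 wild-type libraries, DN2/3 replicates 2, 3 or 4 or DN4 replicates 1, 3 or 4 (0.0536 to 0.105). Gabpa, the DNA-binding subunit of GABP and an activator of mitochondrial and ribosomal genes, rose from 82.6 ± 5.34 to 115 ± 6.86 CPM (log2 change 0.48, SE 0.13, adjusted p = 0.00421). Ets1, Ets2 and Elf1 did not pass in wild type (log2 changes 0.20, 0.45 and 0.28), but all of them passed as higher in a model of the wild-type groups alone (adjusted p = 0.00514, 0.00212 and 0.00589). Replicate numbers pair the stages within a genotype, and with that pairing as a block Elf1 passed too (0.28, adjusted p = 0.0407).

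**Figure D1:**
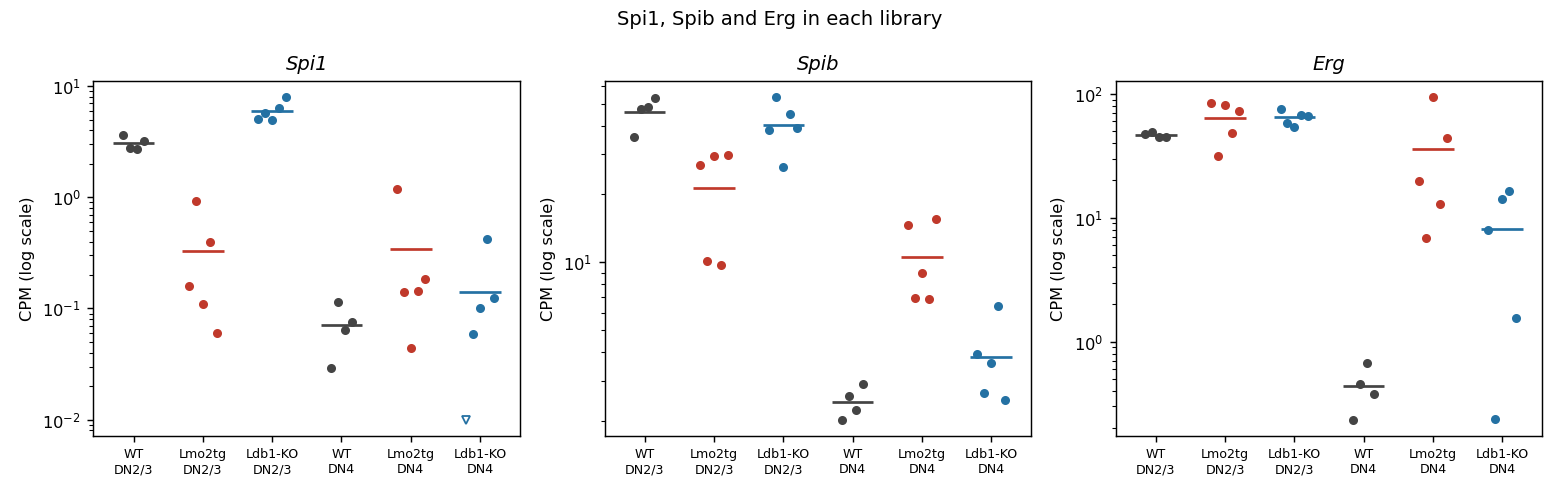
Spi1, Spib and Erg in each of the 28 libraries, in CPM on log axes, by group. Points are libraries, bars are group means and the open triangle marks a library with 0 Spi1 counts; wild-type DN4 libraries sit at 0.234 to 0.666 CPM for Erg while Lmo2tg DN4 libraries spread from 6.82 to 94.1 CPM.

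Lmo2tg DN2/3 cells had less Spi1, Spib and Ets2 and more Ets1 than wild-type DN2/3 cells, and with Ldb1 deleted as well, Spi1, Spib and Ets2 were higher again. Against wild type, 1 of the 9 genes was higher and 3 were lower, where 29.5% of all genes tested changed (15.1% higher, 14.4% lower). The ranges did not overlap for 5 of the 9 genes (Spi1, Spib, Fli1, Ets1 and Ets2), where 28.4% of all genes did not overlap. In Ldb1-KO against Lmo2tg at that stage 3 genes were higher and 0 lower by edgeR and by DESeq2, where 16.1% of all genes changed (8.87% higher, 7.22% lower). Spi1 separated those groups without overlap, as did 12.7% of all genes. At an unadjusted p below 0.05 that last comparison held 3 higher and 1 lower, the lower gene being Ets1. Both comparisons use the same Lmo2tg DN2/3 libraries, so a low value there moves both in opposite directions. With the replicate numbers as a block within each library series, Ets1 passed as lower in Ldb1-KO (log2 change -0.27, adjusted p = 0.0198). Whether the numbers pair these 2 transgenic groups is uncertain, since 2 of 5 libraries were most like their own number.

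Spi1 was at 0.158, 0.922, 0.110, 0.394 and 0.0602 CPM in the Lmo2tg DN2/3 libraries, from 2 to 64 counts each. In the Ldb1-KO DN2/3 libraries it was at 5.04, 5.73, 4.93, 6.35 and 7.96 CPM. All 5 Lmo2tg libraries lay below the lowest wild-type library (2.69 CPM) and all 5 Ldb1-KO libraries lay above the highest (3.60 CPM). The log2 change was -3.19 for Lmo2tg against wild type (SE 0.74, adjusted p = 0.00157) and 4.16 for Ldb1-KO against Lmo2tg (SE 0.74, adjusted p = 2.15e-04). Lmo2tg DN2/3 replicate 2 was the highest of its group, and without it these values were -4.15 and 5.11. Ldb1-KO against wild type gave 0.96 (SE 0.69, adjusted p = 0.395), although the groups did not overlap, a separation that 21.3% of all genes tested also showed. That call depends on how the spread is estimated: a model of these 2 groups alone gave an adjusted p of 0.00353.

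Spib in Lmo2tg DN2/3 split into 3 libraries at 27.0, 29.5 and 29.8 CPM and 2 libraries, replicates 2 and 4, at 10.1 and 9.68 CPM. All 5 lay below the lowest wild-type library (35.8 CPM), and the log2 change was -1.12 (SE 0.32, adjusted p = 0.00939). In Ldb1-KO DN2/3 Spib was at 38.2, 53.5, 26.2, 44.9 and 39.3 CPM, so that replicate 3 overlapped the Lmo2tg range. The rise against Lmo2tg was 0.93 on the log2 scale (SE 0.31, adjusted p = 0.0381). It was lost on leaving out Lmo2tg DN2/3 replicate 2 (0.0995) or 4 (0.110), or Ldb1-KO DN2/3 replicate 1 (0.0533), 2 (0.116), 4 (0.0650) or 5 (0.0598), and in a model of these 2 groups (0.0824).

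Ets2, a Ras- and MAP kinase-responsive activator, was at 76.2, 60.5, 72.8 and 80.6 CPM in wild-type DN2/3 and at 32.7, 57.1, 47.6, 40.5 and 44.6 CPM in Lmo2tg DN2/3. Every Lmo2tg library lay below every wild-type library, and the log2 change was -0.70 (SE 0.22, adjusted p = 0.0145). In Ldb1-KO DN2/3 it was at 55.6, 87.6, 73.9, 74.1 and 86.5 CPM, a range close to wild type, and the change against Lmo2tg was 0.76 (SE 0.21, adjusted p = 0.0102). With transgenic replicates 1 to 3 alone both calls were lost (adjusted p = 0.0739 and 0.150). Erg in Lmo2tg DN2/3 ran from 31.4 to 84.9 CPM, on both sides of the wild-type values, and the log2 change was 0.45 (SE 0.65, adjusted p = 0.660). Its Ldb1-KO DN2/3 libraries (54.3 to 75.9 CPM) all lay above the wild-type ones (44.9 to 49.1 CPM), with a log2 change of 0.47 (SE 0.66, adjusted p = 0.683).

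A list of 18 genes of the Spi1 target and myeloid programme was read beside Spi1. In Lmo2tg against wild-type DN2/3, 3 of these 18 were higher (Csf1r, Fcgr3 and Lmo2 itself, the transgene) and 6 were lower (Csf2ra, Lyn, Btk, Fes, Bcl11a and Mef2c), with a median log2 change of -0.25 against 0.01 over all genes tested. In Ldb1-KO against Lmo2tg 6 were higher, namely Csf2ra, Lyn, Btk, Fes, Bcl11a and Mef2c, and Il7r was lower, with a median of 1.22 against -0.01. Of all genes tested, 29.5% changed in the first comparison and 16.1% in the second. Btk, a kinase of B cell receptor signalling, averaged 11.7 ± 0.583 CPM in wild type (SD, n = 4), 0.540 ± 0.757 in Lmo2tg (n = 5) and 14.9 ± 1.88 in Ldb1-KO (n = 5). Its log2 changes were -4.38 (adjusted p = 3.62e-06) and 4.73 (adjusted p = 2.52e-06). Csf2ra, a chain of the GM-CSF receptor, changed by -3.47 (adjusted p = 3.41e-06) and by 2.59 (adjusted p = 1.62e-04), and Fes, a cytoplasmic kinase, by -2.71 (adjusted p = 1.59e-04) and 3.01 (adjusted p = 7.57e-05).

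Other cell types were checked at this stage with marker lists. A myeloid list of 13 genes summed to 19.8 to 26.3 CPM in wild-type DN2/3, 4.96 to 17.4 in Lmo2tg and 25.0 to 39.0 in Ldb1-KO, the same order of groups as for Spi1. Of its genes, Elane, S100a8 and S100a9 were at 0 in wild-type DN2/3 and Elane in Lmo2tg DN2/3, while 0 of the 13 were at 0 in Ldb1-KO DN2/3. A dendritic list of 12 genes, which bears on Spib, summed to 333 to 369, 161 to 236 and 247 to 403 CPM, with Siglech at 0 in wild type. A mature T cell list of 12 genes summed to 981 to 1290, 1479 to 2138 and 1406 to 2155 CPM in these groups. Cd8a was at 0.473 to 1.26, 25.6 to 92.7 and 23.6 to 38.0 CPM. A double-positive thymocyte list, which includes Cd8a, summed to 1584 to 2002, 1132 to 1662 and 1146 to 1522 CPM. The part of such cells in the changes of Spi1, Spib and the other Ets genes at DN2/3 was not tested.

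Factors known to bind or limit Spi1 in early T cells were read as a list of 10. In Lmo2tg against wild-type DN2/3, 4 of them were higher and 0 lower, where 29.5% of all genes changed. Among them were Tcf7, a factor that opens the T cell programme (log2 change 0.54, SE 0.08, adjusted p = 8.76e-06), and Cbfb, the Runx cofactor (0.60, SE 0.12, adjusted p = 5.11e-04). In Ldb1-KO against Lmo2tg, 0 were higher and 2 were lower, where 8.87% of all genes were higher and 7.22% lower. The 2 were Tcf7 (-0.39, adjusted p = 4.68e-04) and Gfi1, a repressor that antagonises Spi1 (-0.53, adjusted p = 9.46e-05). At DN4 5 of the 10 were higher in Lmo2tg than in wild type, where 52.4% of all genes changed, Irf4 by the widest margin (2.34, adjusted p = 0.00218), and Gata3 (-0.39, adjusted p = 0.0448) and Gfi1 (-0.33, adjusted p = 0.0122) were lower in Ldb1-KO than in Lmo2tg.

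At DN4 the comparison with wild type was broader. In Lmo2tg 7 of the 9 Ets genes were higher than in wild type (Spi1, Spib, Erg, Fli1, Ets1, Elf1 and Etv6) and 0 lower, with 0 lower also at an unadjusted p below 0.05 and by DESeq2. At that stage 52.4% of all genes tested changed (28.9% higher, 23.5% lower), and the members' median log2 change was 0.85 against 0.07 over all genes. The ranges did not overlap for 5 of the 9 genes, where 30.0% of all genes tested did not overlap. Against Lmo2tg, Ldb1-KO DN4 cells had 1 gene higher (Ets2) and 3 lower (Spib, Erg and Etv6), where 14.6% of all genes changed (5.85% higher, 8.71% lower). These comparisons share the Lmo2tg DN4 libraries.

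**Figure D2:**
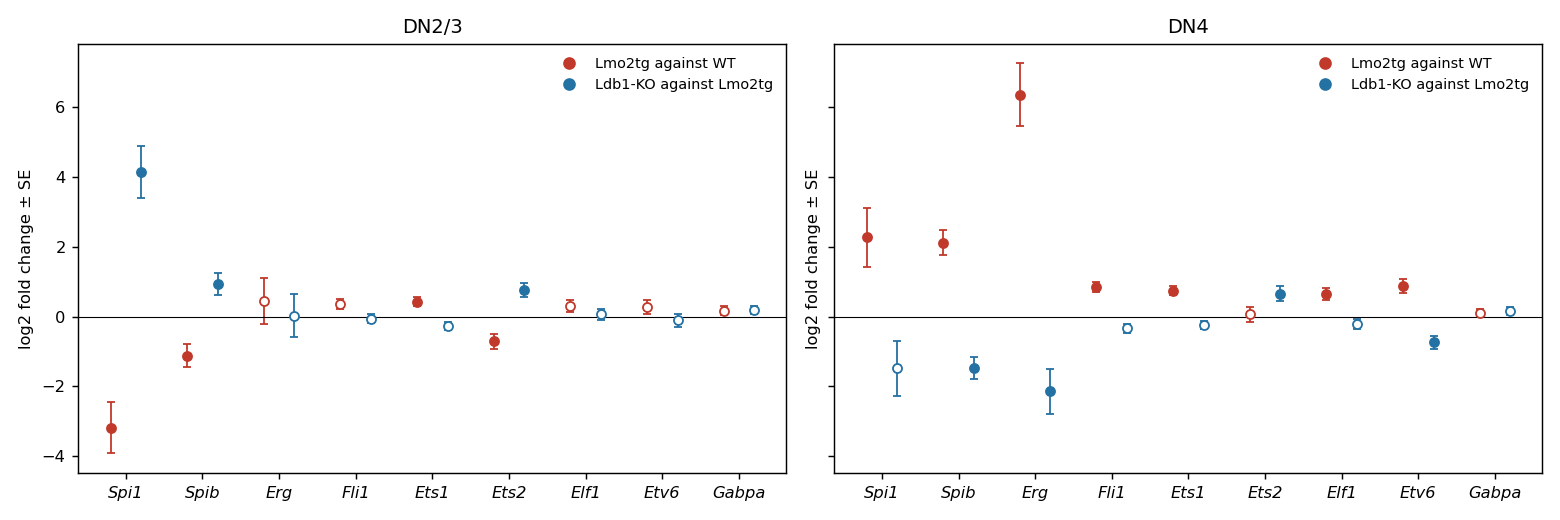
Log2 fold changes of the 9 Ets genes at DN2/3 (left) and DN4 (right), for Lmo2tg against wild type and for Ldb1-KO against Lmo2tg; bars are standard errors and filled points passed the adjusted threshold of 0.05. Spi1 moves from -3.19 to 2.28 between the panels for Lmo2tg against wild type, and Erg reaches 6.36 at DN4. The Spi1 value at DN4 is 0.80 without Lmo2tg DN4 replicate 1.

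Erg made the largest change. The Lmo2tg DN4 libraries held 19.9, 6.82, 94.1, 12.9 and 44.4 CPM, each more than any wild-type DN4 library (0.234 to 0.666 CPM), and spanned a wide range among themselves, with a coefficient of variation of 100.2%. The log2 change was 6.36 (SE 0.90, adjusted p = 4.76e-06), or 5.59 without replicate 3, the library at 94.1 CPM. Within Lmo2tg, Erg did not pass between stages (log2 change -0.84, SE 0.62, adjusted p = 0.386), although it was lower at DN4 in 4 of the 5 same-numbered pairs. That value was -1.61 without DN4 replicate 3 (adjusted p = 0.0951).

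In Ldb1-KO DN4, Erg was at 7.93, 0.235, 14.2, 16.3 and 1.56 CPM. Replicate 2 was within the wild-type range and the other 4 were above it, while 3 of the 5 lay within the Lmo2tg range. The change against Lmo2tg was -2.15 (SE 0.65, adjusted p = 0.0254) and against wild type 4.21 (SE 0.84, adjusted p = 9.65e-04). The call against Lmo2tg was lost without Lmo2tg DN4 replicate 3 (-1.38, adjusted p = 0.138), without Ldb1-KO DN4 replicate 1 (0.0534) or 5 (0.0693), and in a model of these 2 groups (0.246). In the same 5 Ldb1-KO libraries Ldb1 itself was at 21.4, 6.11, 33.9, 54.7 and 12.2 CPM, the same order of libraries as for Erg. This order was noticed after the values were seen and was not tested.

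Marker lists of other cells that use Erg were read beside it. A megakaryocyte list of 8 genes summed to at most 3.50 CPM in any library, with Pf4 and Ppbp at 0 in every group. An endothelial and stromal list of 13 genes summed to 105 to 150 CPM in wild-type DN4, 157 to 458 CPM in Lmo2tg DN4 and 142 to 239 CPM in Ldb1-KO DN4. In Lmo2tg DN4 its lowest sum was in replicate 2, which also had the lowest Erg, and its highest sums were in replicates 5 and 3. Of its genes, 4 were at 0 in wild-type DN4 and 4 in Ldb1-KO DN4, Sox17 among them in both, and 0 were at 0 in Lmo2tg DN4. In each of these groups 3 of its genes averaged over 1 CPM. A mast cell list of 7 genes also moved with Erg. Its sum was 18.4 to 31.8 CPM in wild-type DN4 and 192 to 1797 CPM in Lmo2tg DN4, highest in the library with the highest Erg, and it came from Cpa3 and Kit, which early thymocytes also express. Fcer1a was at 0 in every group, and Ms4a2 and Mcpt8 were at 0 in Lmo2tg DN4. The part of such cells in the Erg change was not tested.

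Erg and Fli1 were also read with the other 5 genes of the stem and progenitor heptad, factors that occupy the same regulatory regions in blood stem cells. At DN4 5 of these 7 were higher in Lmo2tg than in wild type, namely Erg, Fli1, Lmo2, Lyl1 and Runx1, where 28.9% of all genes were higher. That count includes the transgene itself and the Ets genes Erg and Fli1. Lyl1, a bHLH partner of Lmo2, averaged 0.303 ± 0.170 CPM in wild-type DN4 (SD, n = 4), 39.1 ± 27.2 in Lmo2tg DN4 and 9.25 ± 6.79 in Ldb1-KO DN4 (n = 5 each). Its log2 changes were 6.99 (SE 0.77, adjusted p = 1.21e-07) and -2.08 (SE 0.53, adjusted p = 0.00848). At DN2/3 Lmo2 and Lyl1 were higher and Tal1 was lower in Lmo2tg (Tal1 -2.48, SE 0.62, adjusted p = 0.00322), and Tal1 alone passed in Ldb1-KO against Lmo2tg (2.80, SE 0.61, adjusted p = 0.00165). Gata2 did not pass in either DN4 comparison (1.89 and -0.01).

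Fli1 was at 44.7, 47.8, 41.1 and 42.4 CPM in wild-type DN4 and at 81.5, 63.3, 115, 58.7 and 79.3 CPM in Lmo2tg DN4. The groups did not overlap, replicate 3 was again the highest, and the log2 change was 0.85 (SE 0.15, adjusted p = 5.00e-05). In Ldb1-KO DN4 it was at 61.7, 66.4, 76.4, 54.8 and 55.0 CPM, above every wild-type library (log2 change 0.52, SE 0.15, adjusted p = 0.0104) and overlapping Lmo2tg (-0.34, SE 0.14, adjusted p = 0.101).

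Spib kept part of its DN2/3 level in Lmo2tg DN4. Its libraries held 14.6, 6.96, 8.95, 6.89 and 15.5 CPM, all above the wild-type maximum of 2.90 CPM, and the log2 change was 2.12 (SE 0.35, adjusted p = 3.28e-05). In Ldb1-KO DN4 they held 3.92, 2.66, 3.61, 6.43 and 2.46 CPM, all below the Lmo2tg minimum of 6.89 CPM. That difference was -1.48 (SE 0.32, adjusted p = 0.00233). Among the 9 Ets genes Spib alone separated without overlap in that comparison, as did 7.13% of all genes tested. Ldb1-KO against wild type gave 0.64 (SE 0.34, adjusted p = 0.149).

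Spi1 itself stayed near its floor at DN4. The Lmo2tg libraries held 1.19, 0.139, 0.0445, 0.144 and 0.182 CPM, so that replicate 1, with 74 counts, stood apart from 4 libraries with 2 to 8 counts. The Ldb1-KO libraries held 0, 0.0588, 0.101, 0.422 and 0.125 CPM, from 0 to 13 counts. The call for Lmo2tg against wild type (log2 change 2.28, SE 0.85, adjusted p = 0.0276) rested on replicate 1: without it the change was 0.80 (adjusted p = 0.428). It was also lost without wild-type DN4 replicate 1 (0.0775), 3 (0.0621) or 4 (0.0546). Ldb1-KO against Lmo2tg gave -1.48 (SE 0.79, adjusted p = 0.231).

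Markers of other cells moved with these DN4 values. Lmo2tg DN4 replicate 1 had the highest summed myeloid markers of its group (27.3 CPM against 2.56 to 9.26 in the other 4), with Elane at 0. It also had the highest dendritic sum (692 CPM against 162 to 393), double-positive thymocyte sum (3703 against 1457 to 1929), Cd4 (422 against 13.4 to 54.0) and Cd8a (742 against 161 to 345). Of 12 B cell markers, 10 were higher and 0 lower in Lmo2tg than in wild-type DN4, where 28.9% of all genes were higher. Their sum was 403 to 479 CPM in wild type and 450 to 624 CPM in Lmo2tg. Of the 12, 9 averaged over 1 CPM in Lmo2tg DN4, 2 in wild-type DN4 and 3 in Ldb1-KO DN4. Pax5 was at 0 in wild-type DN4, and 0 of the 12 were at 0 in Lmo2tg DN4. In Ldb1-KO against Lmo2tg 6 of these 12 were lower and 0 higher, the direction of Spib, where 8.71% of all genes were lower. An erythroid list of 9 genes summed to 2.37 to 3.27 CPM in wild-type DN4, 7.73 to 30.2 CPM in Lmo2tg DN4 and 6.05 to 29.6 CPM in Ldb1-KO DN4, with Hbb-bs, Hbb-bt and Hba-a2 at 0 in those groups. The part of such cells in the Spi1 and Spib values was not tested.

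The Spi1 target list at DN4 had 9 of 18 genes higher and 1 lower in Lmo2tg than in wild type, where 52.4% of all genes changed, with a median log2 change of 1.33 against 0.07 over all genes tested. Itgam, the CD11b integrin chain, rose by 3.81 (SE 0.36, adjusted p = 1.18e-08) from 0.274 ± 0.0805 CPM in wild type, while Csf2ra was the gene that fell (-3.01, SE 0.48, adjusted p = 1.99e-05). In Ldb1-KO against Lmo2tg Csf2ra was higher (2.33, adjusted p = 9.89e-04), and Itgam (-1.42, adjusted p = 0.00163) and Il7r (-1.82, adjusted p = 6.81e-04) were among those lower. Csf2ra was thus lower in Lmo2tg at both stages. Spi1 was called lower at DN2/3 and higher at DN4, but its DN4 call rested on Lmo2tg DN4 replicate 1.

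Etv6 was highest in the same Lmo2tg DN4 libraries as Erg. It was at 120, 110, 254, 148 and 216 CPM there, with replicates 3 and 5 on top, against 92.2, 97.3, 90.3 and 92.7 CPM in wild type. The groups did not overlap (log2 change 0.86, SE 0.20, adjusted p = 9.31e-04). In Ldb1-KO DN4 it was at 106, 73.9, 133, 127 and 69.5 CPM, on both sides of wild type, and was lower than in Lmo2tg by -0.73 (SE 0.19, adjusted p = 0.00786). That last call was lost in a model of these 2 groups (adjusted p = 0.152). At DN2/3 Etv6 did not pass in either comparison (0.27 and -0.11).

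Ets1, the most abundant member and an activator of T cell receptor and survival genes, was at 679, 673, 694 and 644 CPM in wild-type DN2/3 and at 952, 939, 972, 796 and 845 CPM in Lmo2tg DN2/3. The groups did not overlap and the log2 change was 0.42 (SE 0.13, adjusted p = 0.0146). At DN4 it was at 787, 806, 746 and 759 CPM in wild type and at 1763, 1346, 1317, 920 and 1141 CPM in Lmo2tg. Again all Lmo2tg libraries lay above wild type, replicate 1 highest, and the change was 0.74 (SE 0.13, adjusted p = 6.05e-05). Ldb1-KO DN4 libraries (871 to 1276 CPM) also lay above wild type (0.50, SE 0.13, adjusted p = 0.00657) and did not pass against Lmo2tg (-0.25, SE 0.12, adjusted p = 0.184). The mature T cell list of 12 genes, given above for DN2/3, summed to 453 to 607 CPM in wild-type DN4, 1020 to 2748 CPM in Lmo2tg DN4 and 1162 to 1419 CPM in Ldb1-KO DN4. All 12 of its genes were higher in Lmo2tg than in wild type, where 28.9% of all genes were higher. The sum of this list was highest in replicate 1 and lowest in replicate 4 of Lmo2tg DN4, as was Ets1. The part of such cells in the Ets1 values was not tested.

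Elf1, a broadly expressed activator in lymphocytes, was higher in Lmo2tg than in wild-type DN4, with 244 to 576 CPM against 221 to 284 CPM and overlapping ranges (log2 change 0.64, SE 0.17, adjusted p = 0.00240). With transgenic replicates 4 and 5 alone it was 0.24 (adjusted p = 0.192). Ets2 at DN4 showed another order of groups. It stood at 104, 81.5, 107 and 104 CPM in wild-type libraries and at 171, 108, 76.5, 78.8 and 81.2 CPM in those of Lmo2tg. The Ldb1-KO libraries held 150, 252, 129, 129 and 154 CPM. Wild type and Lmo2tg overlapped (log2 change 0.06, adjusted p = 0.838), while all Ldb1-KO libraries lay above wild type (0.72, SE 0.22, adjusted p = 0.0163). Against Lmo2tg the change was 0.66 (SE 0.20, adjusted p = 0.0311).

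The Ets2 calls at DN4 depended on single libraries. Without Ldb1-KO DN4 replicate 2, the library at 252 CPM, the change against Lmo2tg was 0.44 (adjusted p = 0.151) and against wild type 0.50 (adjusted p = 0.0712). Against Lmo2tg it was also lost without Lmo2tg DN4 replicate 3 (0.0813), 4 (0.0600) or 5 (0.0827) and in a model of the 2 groups (0.193), and against wild type without wild-type DN4 replicate 2 (0.0592). That Ldb1-KO library also had the lowest Erg (0.235 CPM) and the lowest Ldb1 (6.11 CPM) of its group, and the highest Cd4 (329 CPM against 23.6 to 97.8) and Cd8a (713 against 136 to 305). Their part in the Ets2 value was not tested.

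Gabpa did not pass in any comparison between genotypes, with log2 changes of 0.10 to 0.36 and group means of 82.6 to 138 CPM. Its partner Gabpb1, which carries the activation domain of GABP, was higher in Lmo2tg at DN2/3 (0.40, SE 0.08, adjusted p = 5.95e-04) and at DN4 (0.21, SE 0.08, adjusted p = 0.0308), whereas Gabpb2 was lower at DN2/3 (-0.34, adjusted p = 0.00322) and DN4 (-0.40, adjusted p = 4.49e-04). Of 12 partners of Ets factors, 3 were higher and 1 lower in Lmo2tg than in wild-type DN2/3, and 9 were higher and 1 lower at DN4, beside 29.5% and 52.4% of all genes changed. Mkl1, a coactivator of serum response factor, with which the ternary complex Ets factors work, was higher at DN2/3 (0.88, adjusted p = 4.51e-05) and DN4 (0.73, adjusted p = 2.40e-04). In Ldb1-KO against Lmo2tg it was lower at both stages (-0.82, adjusted p = 9.80e-05, and -0.63, adjusted p = 0.00235). Runx3, a lineage factor that often binds beside Ets1, rose in Lmo2tg DN4 (1.25, SE 0.19, adjusted p = 1.19e-05) and was lower in Ldb1-KO than in Lmo2tg (-0.91, SE 0.18, adjusted p = 9.01e-04).

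**Figure D3:**
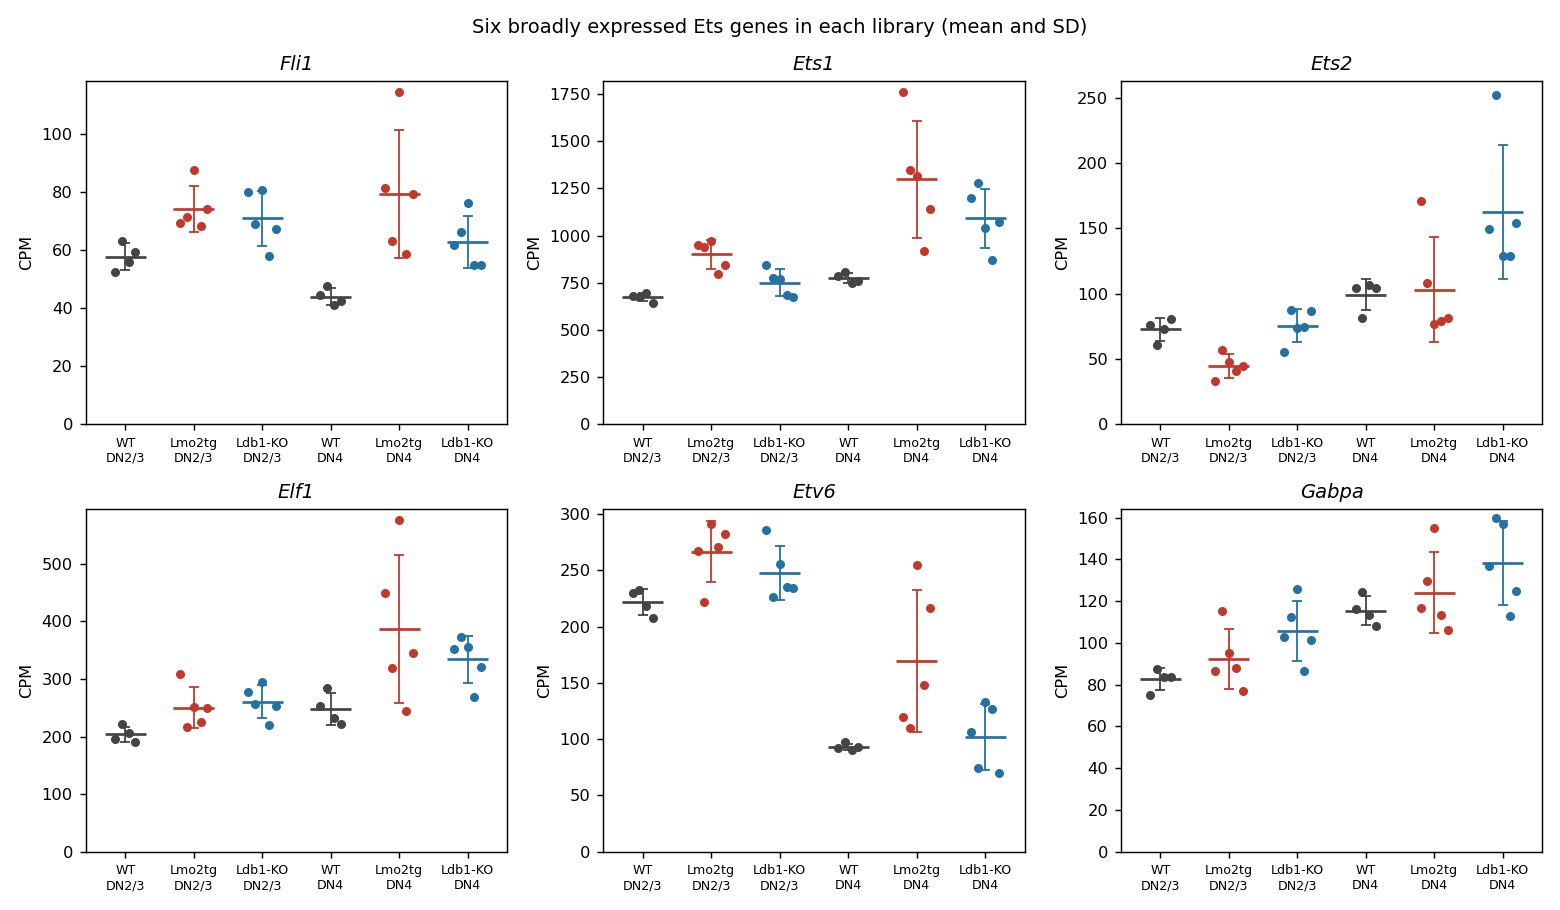
Fli1, Ets1, Ets2, Elf1, Etv6 and Gabpa in each library, in CPM on linear axes from 0, by group, with the mean and SD of each group. Wild-type libraries lie close together, such as 746 to 806 CPM for Ets1 at DN4, while Lmo2tg DN4 libraries spread from 920 to 1763 CPM.

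Compared with wild type directly, Ldb1-KO DN2/3 cells showed 0 of the 9 genes changed by edgeR, where 9.56% of all genes tested changed (6.98% higher, 2.58% lower). At an unadjusted p below 0.05, 2 were higher and 0 lower (Elf1 and Gabpa), and DESeq2 called 1, Gabpa. With the model restricted to these 2 groups 4 genes passed as higher, Spi1, Erg, Elf1 and Gabpa, so the result depends on which groups set the spread. At DN4 5 of the 9 were higher in Ldb1-KO than in wild type and 0 lower, where 32.6% of all genes changed (18.2% higher, 14.4% lower). They were Erg, Fli1, Ets1, Ets2 and Elf1, and the ranges did not overlap for Fli1, Ets1 and Ets2, where 33.1% of all genes did not overlap. Elf1 was the weakest of these (0.43, SE 0.16, adjusted p = 0.0463), and it did not pass with RLE scaling (0.0531), without the low-count filter (0.0656) or on leaving out any of several wild-type or Ldb1-KO DN4 libraries (0.0702 to 0.131).

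The stage step was also read within each transgenic genotype. In Lmo2tg 2 of the 9 genes fell from DN2/3 to DN4 (Spib and Etv6) and 4 rose (Ets1, Ets2, Elf1 and Gabpa), where 15.4% of all genes tested changed (8.32% higher, 7.04% lower). Only Ets2 separated the stages without overlap, where 4.48% of all genes did. Spib fell by 1.00 on the log2 scale (SE 0.31, adjusted p = 0.0276), and Ets2 rose by 1.21 (SE 0.21, adjusted p = 2.65e-04). The Spib call was lost on leaving out Lmo2tg DN2/3 replicates 1, 3 or 5 or DN4 replicates 2 or 3 (adjusted p = 0.0654 to 0.0889), the Etv6 call without DN4 replicate 1 (0.0582) or 2 (0.0548), and the Gabpa call without DN2/3 replicate 5 (0.0514) or DN4 replicate 3 (0.0583). In a model of the 2 Lmo2tg groups alone Ets2 was the 1 gene that passed. In Ldb1-KO 4 fell (Spi1, Spib, Erg and Etv6) and 3 rose (Ets1, Ets2 and Gabpa), where 28.1% of all genes changed (12.3% higher, 15.8% lower). Spi1, Spib, Erg, Etv6, Ets1 and Ets2 separated the stages without overlap, as did 23.7% of all genes.

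Spi1 had a log2 change of 0.08 between the Lmo2tg stages (SE 0.71, adjusted p = 0.960), which was -1.40 without DN4 replicate 1 and 1.03 without DN2/3 replicate 2, so its sign rests on single libraries. In Ldb1-KO the falls were -5.56 for Spi1 (SE 0.83, adjusted p = 2.05e-05), -3.41 for Spib (SE 0.34, adjusted p = 8.11e-08), -3.01 for Erg (SE 0.67, adjusted p = 0.00143) and -1.28 for Etv6 (SE 0.19, adjusted p = 1.69e-05). The Spi1 value was -6.45 without DN4 replicate 4. Gabpa rose by 0.39 (SE 0.12, adjusted p = 0.0152), which was lost without DN2/3 replicate 4 (0.0504) or DN4 replicate 2 (0.0539). With the stages paired by replicate number, Elf1 also rose in Ldb1-KO (0.35, adjusted p = 0.00829).

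**Figure D4:**
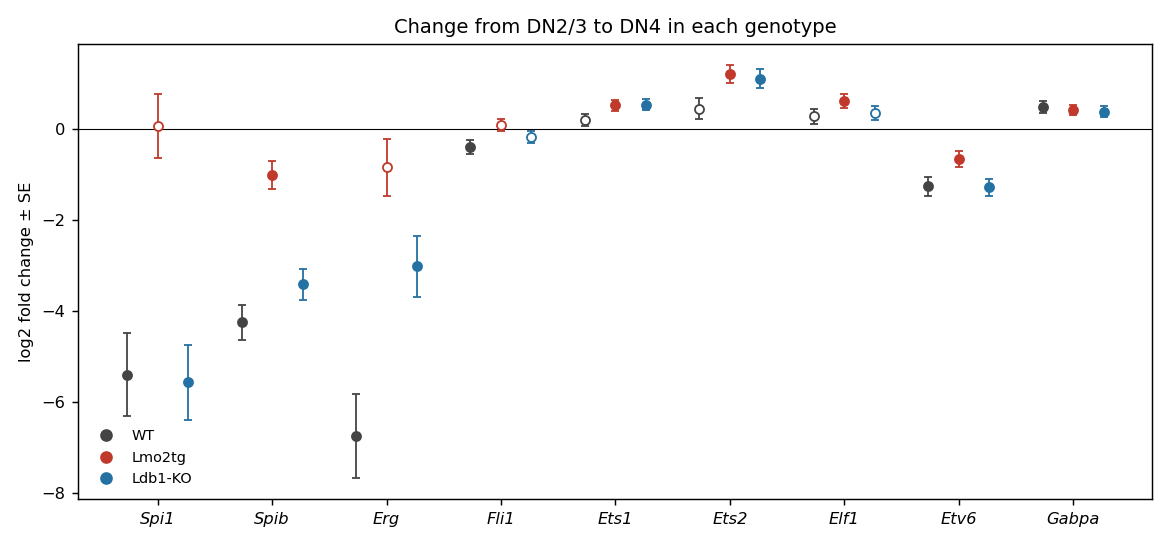
Log2 fold changes of the 9 Ets genes from DN2/3 to DN4 in wild type, Lmo2tg and Ldb1-KO; bars are standard errors and filled points passed the adjusted threshold of 0.05. Erg is at -6.75, -0.84 and -3.01 in the 3 genotypes and Spi1 at -5.39, 0.08 and -5.56; the value of 0.08 changes sign when single libraries are left out.

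The difference between stages was itself tested. For the change from wild type to Lmo2tg, 3 of the 9 genes passed, all with a more positive value at DN4 (Spi1, Spib and Erg), where 25.6% of all genes tested passed (14.7% more positive, 11.0% more negative). The differences were 5.47 for Spi1 (SE 1.13, adjusted p = 0.00188), 3.24 for Spib (SE 0.47, adjusted p = 1.02e-04) and 5.91 for Erg (SE 1.06, adjusted p = 6.31e-04). With the stages paired by replicate number 7 of the 9 passed, adding Fli1 (0.46, adjusted p = 0.00586), Etv6 (0.52, adjusted p = 0.0421), Ets2 (0.70, adjusted p = 0.0447) and Ets1 (0.29, adjusted p = 0.0473). For the change from Lmo2tg to Ldb1-KO, 2 of the 9 passed, both more negative at DN4, where 1.36% of all genes tested passed (0.132% more positive, 1.22% more negative). They were Spi1 (-5.64, SE 1.06, adjusted p = 0.00450) and Spib (-2.41, SE 0.44, adjusted p = 0.00361). Erg did not pass there (-2.17, SE 0.88, adjusted p = 0.312).

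The Spi1 differences moved with single libraries without losing their calls. The difference for Lmo2tg was 3.99 without Lmo2tg DN4 replicate 1 and 6.42 without Lmo2tg DN2/3 replicate 2. The difference for Ldb1-KO was -4.17 and -6.59 without those libraries and -6.53 without Ldb1-KO DN4 replicate 4. The Erg difference for Lmo2tg was 5.14 without Lmo2tg DN4 replicate 3. With transgenic replicates 4 and 5 alone the Ldb1-KO calls were lost for Spi1 (-4.25, adjusted p = 0.126) and Spib (-2.43, adjusted p = 0.308). With replicates 1 to 3 alone Spi1 kept its call (-6.79, adjusted p = 0.0285). Apart from Lmo2tg DN4 replicate 1, the DN4 libraries behind the Spi1 differences held 0 to 13 counts.

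Of 17 further Ets family genes, 11 passed the filter on low counts. In Lmo2tg against wild-type DN2/3, 2 of these 11 were higher (Etv3 and Spic) and 1 lower (Elk4), and at DN4 5 were higher (Elf4, Elk3, Elk4, Etv3 and Etv4) and 1 lower (Erf), beside 29.5% and 52.4% of all genes changed. Spic, a relative of Spi1 and Spib and a factor of iron-handling macrophages, had 0 counts in the 8 wild-type libraries. It averaged 0.245 ± 0.189 CPM in the DN2/3 libraries of Lmo2tg (SD, n = 5) and 0.167 ± 0.0739 CPM in those of Ldb1-KO (n = 5). Elk3, a ternary complex factor, rose in Lmo2tg DN4 from 22.7 ± 4.59 CPM to 73.3 ± 33.9 CPM (log2 change 1.69, SE 0.26, adjusted p = 1.53e-05). Etv1 was the gene higher in Ldb1-KO than in Lmo2tg at both stages (2.65, adjusted p = 0.0175, and 2.25, adjusted p = 0.0449), at mean levels below 1 CPM in all groups. Etv3, a repressor, was lower in Ldb1-KO than in Lmo2tg at DN4 (-0.40, SE 0.09, adjusted p = 0.00231).

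T-lineage genes with known Ets sites moved in both directions. Of 14, 3 were higher and 9 lower in Lmo2tg than in wild-type DN2/3, and 7 were higher and 3 lower at DN4, beside 29.5% and 52.4% of all genes changed. Ptcra, the pre-T cell receptor alpha chain, fell at DN2/3 (-2.48, SE 0.29, adjusted p = 2.25e-07) and DN4 (-1.23, SE 0.28, adjusted p = 8.07e-04). Ets1, as given above, was higher in Lmo2tg at both stages. Against Lmo2tg, Ptcra was higher in Ldb1-KO at both stages (1.60, adjusted p = 1.07e-04, and 1.12, adjusted p = 0.00498). Cd3g, which encodes CD3 gamma, was lower in Lmo2tg at DN2/3 (-1.45, SE 0.12, adjusted p = 5.36e-10) and had a log2 change of 0.00 at DN4 (SE 0.12).

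Across the 28 libraries, on log2(CPM + 0.5), the members formed pairs with like patterns. Pearson's r was 0.93 for Erg with Etv6, 0.86 for Spib with Erg, 0.85 for Spib with Etv6, 0.85 for Ets1 with Elf1 and -0.81 for Ets2 with Etv6. Among the 11031 genes averaging 1 CPM or more, the pattern nearest to Spi1 was that of Cd34, a surface protein of progenitors (r = 0.97). Cd34 averaged 3.12 CPM in wild-type DN2/3, 0.423 in Lmo2tg DN2/3 and 9.34 in Ldb1-KO DN2/3. Sstr2 and Nfe2 were near Erg (r = 0.98 and 0.96), Mybpc2 and Gab2 near Spib (0.97 and 0.96), and Adgrg1 near Etv6 (0.97). For the others the nearest genes were Erbb2ip for Fli1 (0.96), Rapgef6 for Ets1 (0.95), Gpr162 for Ets2 (0.93), Cast for Elf1 (0.95) and Pbrm1 for Gabpa (0.97). The libraries share stage, genotype and library series, so these values describe likeness across the 6 groups as much as between libraries.

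Spread among replicates differed by group as well. The coefficient of variation of Erg was 4.49% in wild-type DN2/3, 36.3% in Lmo2tg DN2/3 and 13.1% in Ldb1-KO DN2/3. For Ets1 it was 3.54% in wild-type DN4 and 24.0% in Lmo2tg DN4, and for Etv6 3.19% and 37.2%. In every one of the 9 genes the Lmo2tg DN4 libraries varied more than the wild-type DN4 libraries.

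The order of the 6 groups by mean level differed from gene to gene, and many neighbours in it did not separate. Spi1 ran from Ldb1-KO DN2/3 (6.00 CPM) through wild-type DN2/3 (3.08) to 4 groups at 0.0708 to 0.340 CPM whose neighbours overlapped. Erg ran from Ldb1-KO, Lmo2tg and wild-type DN2/3 (64.6, 63.7 and 46.7 CPM) through Lmo2tg DN4 (35.6) and Ldb1-KO DN4 (8.05) to wild-type DN4 (0.435), and each pair of neighbours overlapped in range. Spib ran from wild-type DN2/3 (46.2 CPM) to wild-type DN4 (2.43), with a gap between neighbours at Lmo2tg DN4 (10.6) and Ldb1-KO DN4 (3.82). Gabpa ran from Ldb1-KO DN4 (138 CPM) to wild-type DN2/3 (82.6), all neighbours overlapping. Fli1 and Ets1 were highest in Lmo2tg DN4 (79.5 and 1298 CPM), Ets2 in Ldb1-KO DN4 (163), Elf1 in Lmo2tg DN4 (387) and Etv6 in Lmo2tg DN2/3 (267). For these 5 genes neighbouring groups overlapped except for wild-type DN2/3 over wild-type DN4 in Fli1 and wild-type DN2/3 over Lmo2tg DN2/3 in Ets2.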

How the data were processed

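Counts per gene for 28 RNA-seq libraries (TruSeq RNA V2, paired-end) were used as deposited by the authors. STAR 2.5.2a, featureCounts 1.4.6-p3 and mm10 are named in the submitters' processing notes. Annotation, strandedness and treatment of multi-mapped reads in the counting were not given in the labels or notes. Of 24421 genes, 14371 passed edgeR's filterByExpr. They were fitted in 1 edgeR 4.0.16 quasi-likelihood model of 6 groups (R 4.3.3, TMM scaling, robust dispersion) with 11 contrasts, Benjamini-Hochberg adjustment over all genes tested and a threshold of 0.05. The procedure was run on simulated counts with independent libraries and the same dispersion of a gene in every group. In these data same-numbered libraries deviated together and the spread differed by group, so that run does not test the calls under those conditions. Library totals ran from 28.1 to 106.9 M counts, and Spi1 at DN4 had the fewest counts of the members (20 to 96 per group). Standard errors did not follow counts alone: for Lmo2tg against wild-type DN4 they were 0.85 for Spi1 and 0.90 for Erg. No pair of replicates agreed within sampling noise (lowest chi-square per degree of freedom 27.1).

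Replicate numbers come from the labels. Same-numbered libraries deviated together between the stages of each genotype (lowest r 0.231 in wild type, 0.573 in Lmo2tg and 0.511 in Ldb1-KO). The block within each genotype treats those as pairs. Between Lmo2tg and Ldb1-KO at DN2/3 the likeness was weaker (lowest r 0.107, median 0.213), and 2 of 5 libraries were most like their own number. The block within each library series ties all transgenic groups by number, so it rests on a pairing that is uncertain between genotypes. At DN4 the lowest r between Lmo2tg and Ldb1-KO was -0.096, and wild-type and transgenic libraries share only a number.

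Genes picked for naming were the 9 members, Lmo2, Ldb1, the 2 genes of each list with the smallest adjusted p in each of the 4 main genotype contrasts, and the 3 nearest patterns per member. Not every gene so picked is described. Other genes were named outside that rule, such as Gabpb1 and Gabpb2, marker genes and the genes behind small counts of calls. Members and lists were chosen with earlier results of these data known. Alternatives were DESeq2 1.42.0, RLE scaling, no filter, replicate blocks, a model of the compared groups and leaving out each library. The block within each genotype and the split of transgenic replicates 1 to 3 from 4 and 5 were chosen after seeing the data.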

Additional observations from a re-analysis of the deposited data

Results flagged for a closer look

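In 3 of the 54 gene-by-group sets of libraries checked, 1 library lay far from the rest; chance gives about 1 in 20 such sets. They were Spi1 in Lmo2tg DN4 replicate 1 (1.19 CPM), Ets2 in wild-type DN4 replicate 2 (81.5 CPM, the lowest) and Ets2 in Ldb1-KO DN4 replicate 2 (252 CPM, the highest).

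The change between genotypes differed between DN4 and DN2/3 by a test of the difference itself for 3 genes. For Lmo2tg against wild type the edgeR difference was 5.47 for Spi1, 3.24 for Spib and 5.91 for Erg on the log2 scale. For Ldb1-KO against Lmo2tg it was -5.64 for Spi1 and -2.41 for Spib. These comparisons share the Lmo2tg libraries.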

How the results depend on the processing

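Of 47 calls on the 9 genes, 33 held in every alternative other than those chosen after seeing the data, and 0 of the 47 changed sign in any alternative. Of the 52 values that missed the threshold, 15 changed sign in at least 1. Counts of calls are over all genes tested unless said to be of Ets genes. With the replicate number as a block over all samples, Ldb1-KO against wild-type DN2/3 had 1 Ets gene and 2449 genes (0 and 1374 without it). With the replicate block within each library series, counts were 3758 and 3266 for Ldb1-KO against Lmo2tg at DN2/3 and DN4 (2312 and 2092 without it), 3 Ets genes and 3112 genes for Ldb1-KO against wild-type DN2/3, 3874 for the Lmo2tg stages (2208), 5 Ets genes and 5817 genes for the stage difference of the Lmo2tg change (3 and 3684) and 396 for that of the Ldb1-KO change (195). With the pairing within each genotype they were 5569 and 6934 for the Lmo2tg and Ldb1-KO stages, 7 Ets genes and 7106 genes for the first stage difference and 1933 for the second. Lmo2tg and Ldb1-KO at DN4, where the lowest same-number r was -0.096, gave Ets1 (-0.23, adjusted p = 0.0435) and Fli1 (-0.31, adjusted p = 0.0152) as lower in Ldb1-KO by the block within each library series. In a model of the compared groups, counts were 4947 for Lmo2tg against wild-type DN4 (7532 in the model of all groups), 1 Ets gene and 681 genes for Ldb1-KO against Lmo2tg DN4 (4 and 2092), 4 Ets genes and 3037 genes for Ldb1-KO against wild-type DN2/3, 1 Ets gene and 321 genes for the Lmo2tg stages (6 and 2208), and 2146 and 85 for the stage differences. DESeq2 gave 1 Ets gene for Ldb1-KO against wild-type DN2/3 and 394 genes for the stage difference of the Ldb1-KO change. The cause of these shifts was not tested. Leaving out 1 library at a time gave, for Ets genes and all genes, 4 to 4 and 3514 to 4229 (Lmo2tg against wild-type DN2/3), 6 to 7 and 6478 to 8336 (the same at DN4), 2 to 3 and 1730 to 2376 (Ldb1-KO against Lmo2tg DN2/3), 2 to 5 and 1476 to 2866 (DN4), 0 to 1 and 764 to 1406 (Ldb1-KO against wild-type DN2/3), 3 to 6 and 2855 to 5028 (DN4), 5 to 6 and 5671 to 6244 (wild-type stages), 4 to 6 and 1577 to 3450 (Lmo2tg stages), 6 to 8 and 3116 to 3983 (Ldb1-KO stages), 3 to 6 and 2412 to 5411 (first stage difference) and 2 to 2 and 139 to 624 (second). The share of calls that were higher was 9.74% for the stage difference of the Ldb1-KO change and 46.5% with the pairing within genotypes. Low counts limit Spi1 at DN4, where all but 2 libraries held at most 8 counts.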
